A study of Bos taurus with 3 samples.

Results

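The transforming growth factor beta (TGF-beta) and bone morphogenetic protein (BMP) pathway was examined in bovine fetal fibroblasts (BFF116), cultured cells whose nuclei are transferred into eggs to make cloned embryos. Its members were taken by gene symbol alone, as the ligands, receptors, SMAD proteins, latent TGF-beta binding proteins and secreted or intracellular inhibitors that have a row in the deposited count table, which gave 61 genes of 31903. The series holds 1 group of 3 libraries, called replicates 1 to 3, each from 70000 cells whose cell cycle was synchronized by 48 h without serum. No cells in serum, no treated cells and no second line were measured, so nothing here compares conditions, and the labels give neither the animal behind BFF116 nor whether the replicates were separate cultures. Spread between replicates may therefore be partly technical.

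Ligands of this family are secreted dimers that bring together type II and type I receptor kinases, and the type I receptor then phosphorylates receptor-regulated SMAD proteins. SMAD2 and SMAD3 carry TGF-beta and activin signals, SMAD1, SMAD5 and SMAD9 carry BMP signals, and both sets enter the nucleus with SMAD4. TGF-beta is stored in the matrix in a latent complex, and fibroblasts are known for making matrix in response to it, while BMP activity is held in check outside the cell by binding proteins such as noggin, chordin, gremlin and follistatin.

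The gene counts of the libraries summed to 8608350, 4842331 and 7122651, and reads assigned to no gene were 59.2, 58.9 and 62.0% of counted reads. The mode of counting and strandedness are not given, so whether these reads lie outside genes is not known. Levels are given in CPM, gene counts scaled to TMM-adjusted library sizes, and a gene counts as measured if no library has it under 1 CPM. A gene at 0 reads could still have up to 3 reads, which is 0.356, 0.605 and 0.422 CPM in replicates 1 to 3, for counting error only. All 10 of 10 fibroblast markers were measured. Epithelial markers were measured for 0 of 7 genes, with a summed level of 1.90 to 4.63 CPM and EPCAM and CLDN4 at 0 reads. Of the endothelial markers 3 of 6 were measured (PECAM1, TEK and ERG), with a sum of 9.47 to 27.3 CPM and KDR and TIE1 at 0 reads, and of the leukocyte markers 2 of 7 (CD68 and LYZ), with a sum of 4.23 to 11.2 CPM and PTPRC and TYROBP at 0 reads. Among cartilage and bone markers RUNX2 was the 1 measured gene of 6, and skeletal muscle markers had 0 of 6.

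Of the 61 pathway genes 35 were measured, 10 had reads but fell under 1 CPM in some library, and 16 had 0 reads in all 3 libraries. Of all genes listed, 34.6% were measured and 43.5% had 0 reads. Of protein-coding genes with a row that were matched to the RefSeq annotation, 56.8% were measured, close to the 57.4% of the members. Together the members took 0.257 to 0.310% of the gene counts of a library. The unmeasured genes were mainly ligands: the BMP, GDF, activin and inhibin lists, with 24 genes, held 19 of the 26 unmeasured members and 15 of the 16 at 0 reads, whereas all 5 receptor-regulated SMADs, the common SMAD and all 4 latent TGF-beta binding proteins were measured. CPM is not corrected for transcript length, and no transcript lengths were at hand. Where reads of different genes are set side by side below, the split of reads therefore also carries the lengths of the transcripts. It is not an order of expression. Fixed transcript lengths cancel when the same split is compared between libraries. A length bias that differs between libraries would not cancel, and this was not tested.

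**Figure D1:**
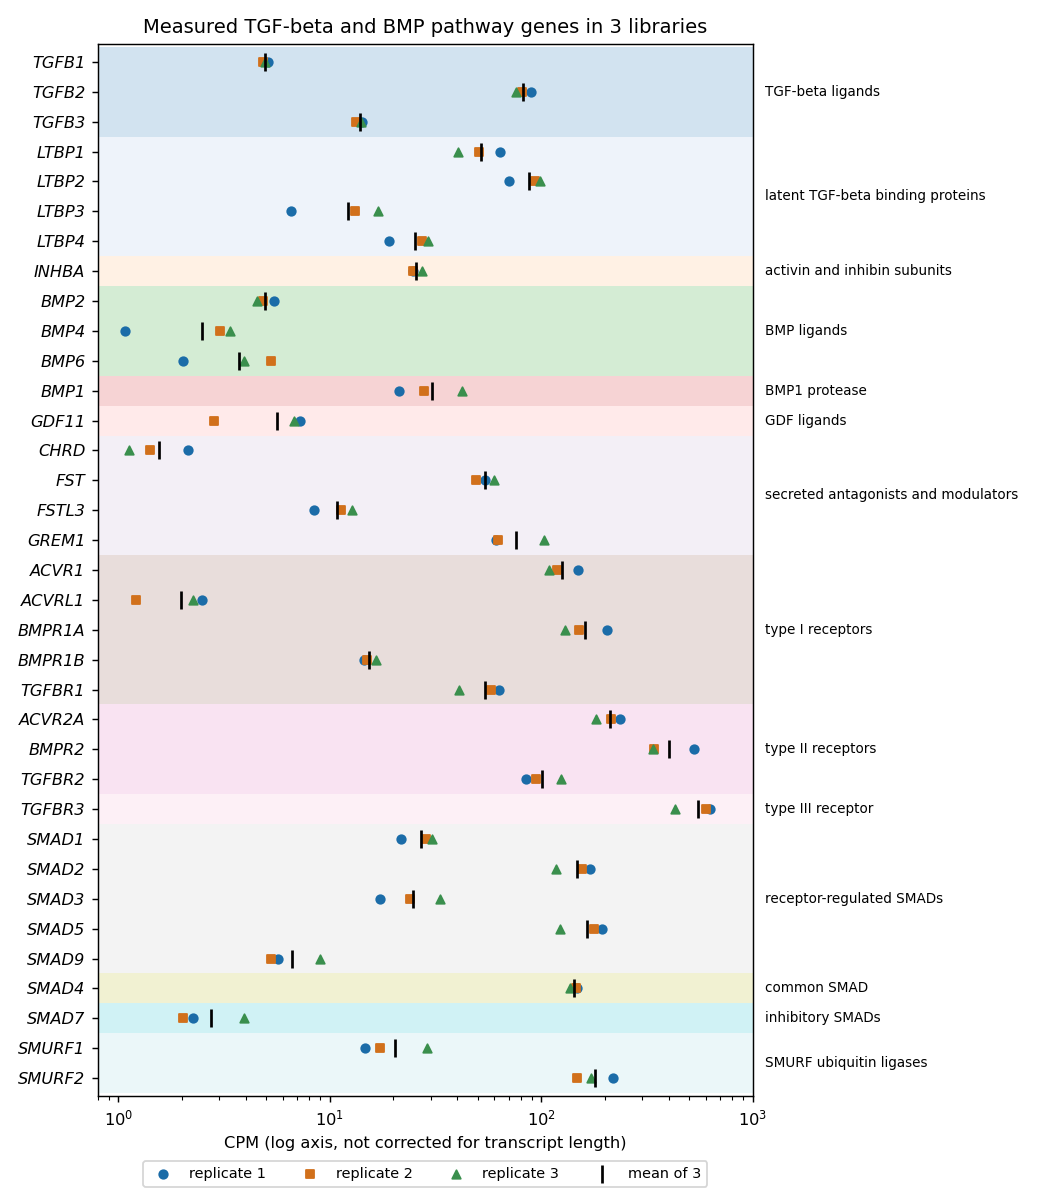
CPM on a log axis of the 35 measured pathway genes, with 1 symbol per replicate, a bar at the mean of the 3 libraries and shading by role. The receptors TGFBR3 and BMPR2 lie at the right, from 338 to 626 CPM. TGFB1, BMP2, BMP4, BMP6, ACVRL1, CHRD and the inhibitory SMAD7 lie below 6 CPM.

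All 3 TGF-beta ligand genes were measured, and their levels were nearly the same in each library. TGFB2 stood at 89.3, 80.8 and 75.7 CPM in replicates 1 to 3 (81.9 ± 6.88, SD, n = 3), TGFB3 at 14.3, 13.3 and 14.1 CPM (13.9 ± 0.506) and TGFB1 at 5.11, 4.84 and 4.92 CPM (4.96 ± 0.138). No library stood apart for any of them, and the highest library exceeded the lowest by 1.06-fold for TGFB1, 1.07-fold for TGFB3 and 1.18-fold for TGFB2. On 43, 24 and 35 reads of TGFB1 and 120, 66 and 100 of TGFB3, counting error alone allows a wider spread. Their closeness therefore does not show steady expression. TGFB2 took 82.2, 81.7 and 79.9% of the reads of the 3 genes. TGFB1, the best studied of these cytokines, had 43, 24 and 35 reads, and its level is uncertain because the gene overlaps HNRNPUL1 and CCDC97 in the RefSeq annotation of ARS-UCD2.0, which may not be the build counted, and reads over more than 1 gene are left out of such counts. In all, 9 members overlap another protein-coding gene there, TGFB1, TGFB3, LTBP3, SMAD2, SMAD6, SMURF2, BMP8A, BMP8B and GDF1, and the levels of each carry this uncertainty.

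Latent TGF-beta binding proteins tether the inactive ligand to fibrillin microfibrils. LTBP2, which unlike its relatives is not known to bind latent TGF-beta, stood at 70.4, 93.9 and 98.6 CPM (87.7 ± 15.1). For LTBP1 the values were 63.8, 51.0 and 40.2 CPM (51.7 ± 11.8), for LTBP4 19.1, 27.4 and 29.0 CPM (25.2 ± 5.30) and for LTBP3 6.53, 13.1 and 16.9 CPM (12.2 ± 5.24). LTBP1 was highest in replicate 1, where the other 3 genes were lowest. LTBP1 accordingly made up 90.7% of the reads of LTBP1 and LTBP3 in replicate 1 (exact 95% binomial interval 88.1 to 92.9), 79.6% in replicate 2 (74.7 to 83.9) and 70.4% in replicate 3 (65.7 to 74.8).

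Among the activin and inhibin subunits, INHBA, which forms activin A as a homodimer, was the 1 measured gene of 5. It stood at 24.8, 24.8 and 27.2 CPM (25.6 ± 1.36), within 1.10-fold between libraries. INHBE had 14, 4 and 11 reads and INHA, the subunit that turns an activin into an inhibin, 3, 3 and 0 reads, while INHBB and INHBC had 0.

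BMP ligands had few reads, as TGFB1 did. BMP2 had 46, 24 and 32 reads (5.46, 4.84 and 4.50 CPM), BMP6 17, 26 and 28 reads (2.02, 5.24 and 3.94 CPM) and BMP4 9, 15 and 24 reads (1.07, 3.02 and 3.38 CPM). BMP2 was close to level over the libraries, and BMP4 had fewer than 10 reads in replicate 1. BMP5 had 0, 0 and 3 reads, and BMP3, BMP7, BMP8A, BMP8B and BMP10 had 0. BMP8A and BMP8B are close copies of each other, so reads of either could be lost as having several alignments. BMP4 took 16.4% of the reads of BMP4 and BMP2 in replicate 1 (exact 95% interval 7.77 to 28.8) and 42.9% in replicate 3 (29.7 to 56.8), intervals that do not overlap, though they rest on 55 and 56 reads.

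BMP1 carries the name of the family but encodes an astacin metalloprotease that removes the C-propeptides of fibrillar procollagens. Its level was 21.3, 28.0 and 42.1 CPM (30.4 ± 10.6), lowest in replicate 1 and highest in replicate 3.

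Of the growth and differentiation factors, GDF11, an activin-like ligand, was the 1 measured gene of 10, with 7.25, 2.82 and 6.75 CPM (5.61 ± 2.43) and its lowest value, from 14 reads, in replicate 2. GDF15, a stress cytokine that signals through a receptor outside this family, had 11, 10 and 6 reads. GDF1, GDF2, GDF3, GDF5, GDF6, GDF7, GDF9 and GDF10 had 0 reads in every library, among them the cartilage and joint factor GDF5 and the oocyte factor GDF9. GDF1 overlaps CERS1 and UPF1 in ARS-UCD2.0, so its level is uncertain.

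Secreted inhibitors had 4 of 6 members measured. GREM1 (gremlin), which binds BMP2 and BMP4, stood at 61.3, 62.5 and 103 CPM (75.5 ± 23.7), with replicate 3 the highest. FST (follistatin), the activin antagonist, was near level at 54.2, 49.4 and 59.8 CPM (54.4 ± 5.22), and its relative FSTL3 stood at 8.43, 11.3 and 12.7 CPM (10.8 ± 2.16). INHBA and its antagonist FST kept 1 split of reads, INHBA taking 31.4, 33.4 and 31.2% of the reads of both, and the exact 95% intervals of the 3 libraries overlapped (27.9 to 35.1, 28.6 to 38.5 and 27.6 to 35.0). CHRD (chordin) had 18, 7 and 8 reads and NOG (noggin) 0 in every library.

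BMPER, a BMP-binding protein studied mostly in endothelial cells, had 34, 5 and 1 reads, and it would pass the level of 1 CPM without replicate 3. The measured endothelial markers had no common order over the libraries. PECAM1 stood at 4.51, 2.02 and 1.41 CPM, TEK at 7.72, 3.02 and 7.04 CPM and ERG at 6.89, 3.83 and 18.3 CPM, while VWF had 0, 3 and 4 reads. Their part in the reads of BMPER was not tested. The transmembrane pseudoreceptor BAMBI, which blocks signalling for lack of a kinase domain, had 0, 2 and 0 reads.

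Receptor genes were measured for 9 of 12 members. TGFBR3 (betaglycan), a coreceptor that presents TGF-beta2 to the signalling receptors, stood at 626, 603 and 427 CPM (552 ± 109). Among type II receptors, BMPR2 stood at 528, 342 and 338 CPM (403 ± 109), ACVR2A at 236, 213 and 182 CPM (210.5 ± 27.2) and TGFBR2 at 84.5, 94.5 and 124 CPM (101 ± 20.5). TGFBR2 was highest in replicate 3, where the other 3 were lowest. ACVR2B, the second activin type II receptor, had 6, 12 and 9 reads.

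Type I receptors were led in reads by those of BMP. BMPR1A stood at 204, 151 and 129 CPM (161 ± 38.2), ACVR1 (ALK2) at 149.9, 118 and 109 CPM (126 ± 21.3), TGFBR1 (ALK5) at 62.8, 58.0 and 40.9 CPM (53.9 ± 11.5) and BMPR1B at 14.5, 14.9 and 16.6 CPM (15.3 ± 1.12). The first 3 were lowest in replicate 3, and BMPR1B was near level. The activin type I receptors ACVR1B (ALK4) and ACVR1C (ALK7) had 3, 17 and 9 and 10, 10 and 5 reads. ACVRL1 (ALK1), the receptor of GDF2 and BMP10 on endothelial cells, had 21, 6 and 16 reads, and both of those ligand genes had 0. Beside the endothelial markers given above for BMPER, the part of such cells in the reads of ACVRL1 was not tested either. In bulk RNA, fewer cells of a type and less RNA per cell cannot be told apart.

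Some splits of reads between receptors had separate intervals between libraries, where the intervals treat each read as a separate molecule. TGFBR1 took 42.7% of the reads of TGFBR1 and TGFBR2 in replicate 1 (exact 95% interval 39.9 to 45.5), 38.0% in replicate 2 (34.6 to 41.6) and 24.8% in replicate 3 (22.4 to 27.4), so that replicate 3 stood apart. BMPR2 took 86.2, 78.3 and 73.2% of the reads of BMPR2 and TGFBR2, with no overlap among the intervals (85.2 to 87.1, 76.5 to 80.1 and 71.6 to 74.7). BMPR2 and BMPR1A, by contrast, kept overlapping intervals, with BMPR2 at 72.2, 69.4 and 72.3% of their reads (71.0 to 73.3, 67.5 to 71.2 and 70.8 to 73.9).

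All 6 signal-carrying SMAD genes were measured, and they fell into genes lowest in replicate 3 and genes highest there. SMAD4, the common partner, was the most even at 148, 146 and 137 CPM (144 ± 5.89), within 1.08-fold. SMAD2 stood at 171, 157 and 117 CPM (148 ± 27.8) and SMAD5 at 193, 178 and 123 CPM (165 ± 36.9), both lowest in replicate 3. SMAD3 stood at 17.2, 24.0 and 33.1 CPM (24.8 ± 7.95), SMAD1 at 21.7, 28.4 and 30.4 CPM (26.8 ± 4.54) and SMAD9 at 5.70, 5.24 and 9.01 CPM (6.65 ± 2.05), all highest in replicate 3. Each branch, that of TGF-beta and that of BMP, thus held SMADs of both kinds. This is not read as a trait of the branches, because replicates 1 and 3 lay on opposite sides of the mean for 80.5% of all genes tested. None of the 6 SMADs had an unadjusted p under 0.05 in the spread test given below.

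SMAD2 made up 90.8% of the reads of SMAD2 and SMAD3 in replicate 1 (exact 95% interval 89.3 to 92.2), 86.7% in replicate 2 (84.3 to 88.9) and 78.0% in replicate 3 (75.4 to 80.4). For the BMP branch, SMAD1 made up 10.1, 13.8 and 19.8% of the reads of SMAD1 and SMAD5 (8.77 to 11.6, 11.7 to 16.0 and 17.5 to 22.3). In both pairs the intervals of the 3 libraries were separate. SMAD4 and SMAD2 had no common order, with SMAD4 at 46.4% of their reads in replicate 1 (44.5 to 48.3), 48.3% in replicate 2 (45.7 to 50.9) and 53.9% in replicate 3 (51.5 to 56.2). They were the 1 exception among 23 pairs of measured genes. Some other orders lay within counting error. Intervals included equal shares for BMP4 with BMP6 in every library, BMP4 with BMP2 in replicates 2 and 3, and LTBP1 with LTBP2 in replicate 1.

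Inhibitory SMADs, which bind activated receptors and recruit ubiquitin ligases to them, had few reads. SMAD7 had 19, 10 and 28 reads (2.26, 2.02 and 3.94 CPM), and SMAD6, the inhibitor that acts mainly on BMP signals, 2, 1 and 2. SMAD3, which had 145, 119 and 235 reads, lies between SMAD6 and AAGAB in the order of protein-coding genes with a row in the table. The ubiquitin ligase SMURF2, which SMAD7 brings to the TGF-beta receptor, stood at 219.5, 148 and 172 CPM (179.9 ± 36.4), and SMURF1, which targets SMAD1 and SMAD5, at 14.6, 17.3 and 28.8 CPM (20.3 ± 7.56). SMURF2 took 93.8, 89.5 and 85.6% of their reads, and replicate 1 stood apart from the other libraries (92.6 to 94.8, 87.2 to 91.5 and 83.7 to 87.4).

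**Figure D2:**
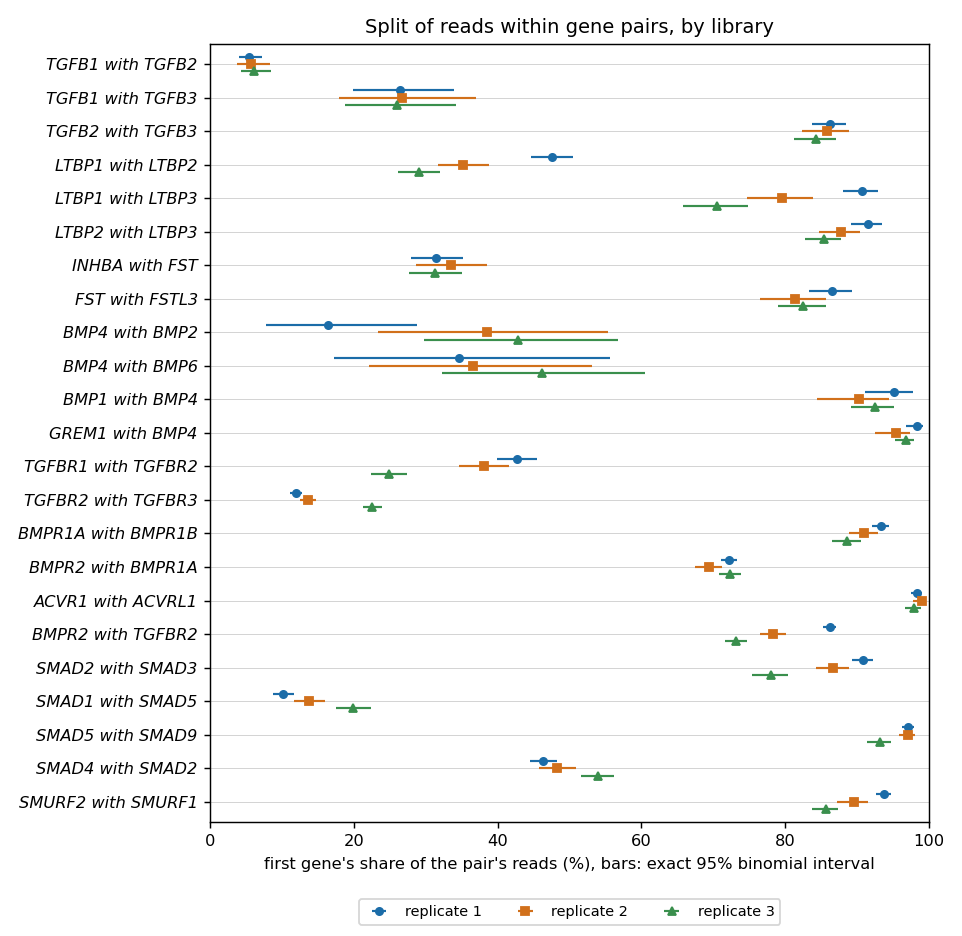
Share of a pair's reads taken by its first gene, in percent, for the 23 planned pairs in which both genes were measured. Each replicate has 1 symbol, and bars are exact 95% binomial intervals that treat each read as a separate molecule. The pairs of TGFB genes overlap in all libraries, while SMAD2 with SMAD3 lies at 90.8, 86.7 and 78.0% with separate intervals.

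Of these 23 pairs 13 had intervals that were separate between at least some libraries. Pairs of other genes were not counted this way, so 13 of 23 is not read as a trait of the pathway. The intervals treat each read as a separate molecule. Amplified reads that carry no molecular identifier are not separate molecules, so the intervals can be too narrow. The spread of single genes between libraries was tested over all genes, and that test does not cover the split of a pair. With edgeR's trended dispersion on the 10434 genes that reached 10 counts in each library, the common biological coefficient of variation was 0.273, and a gene was called more variable than genes of its level from a negative binomial Pearson statistic with Benjamini-Hochberg adjustment. Of the 32 members in this test 0 were called at an adjusted p under 0.05 and 0 had an unadjusted p under 0.05, and over all genes tested 0% were called and 5.06% had an unadjusted p under 0.05. With DESeq2's trended dispersion 0 members were called as well. No departure of a single member between libraries passed this test, which compares it with genes of its level. The trend comes from the same 3 libraries and no gene was called, so 0 calls do not show that members were even between libraries.

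The median SD of the log2 level over the 3 libraries was 0.30 for the 32 members and 0.31 for all genes tested. Of the 32 members, TGFB1 (0.036), TGFB3 (0.051), SMAD4 (0.06) and INHBA (0.074) varied least, and GDF11 (0.68), LTBP3 (0.68), BMP6 (0.61) and SMURF1 (0.50) varied most. For TGFB1 and TGFB3, with few reads, counting error alone allows a larger SD than these values. GDF11 and BMP6 also had few reads, 14 for GDF11 in replicate 2 and 17 for BMP6 in replicate 1. BMP4 was measured but not tested, with 9 reads in replicate 1 and an SD of 0.72. In all, 9 of 32 members had an SD under 0.2, against 27.7% of all genes tested.

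**Figure D3:**
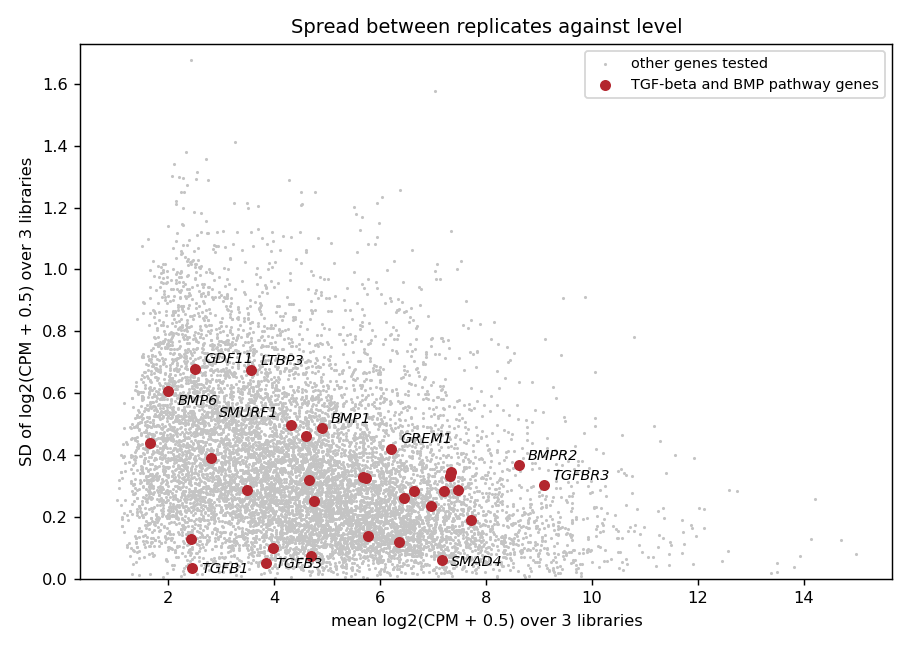
SD of log2(CPM + 0.5) over 3 libraries against its mean, for 10434 genes, with the 32 pathway genes in red. The red points lie within the grey cloud, from TGFB1 at an SD of 0.036 to GDF11 and LTBP3 at 0.68.

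Members were seldom highest in replicate 2. Replicate 1 held the highest value of 16 members, replicate 3 that of 15 and replicate 2 that of 1, BMP6, against 39.3, 36.3 and 24.4% of all genes tested. Among those highest in replicate 1 were TGFBR1, TGFBR3, BMPR1A, BMPR2, ACVR1, ACVR2A, SMAD2, SMAD4, SMAD5 and SMURF2. Those highest in replicate 3 included TGFBR2, SMAD1, SMAD3, SMAD7, SMAD9, SMURF1, BMP1, GREM1 and 3 of the latent binding proteins. Replicate 3 was also the library with the largest share of reads assigned to no gene (62.0%), and the part of that in these levels was not tested.

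**Figure D4:**
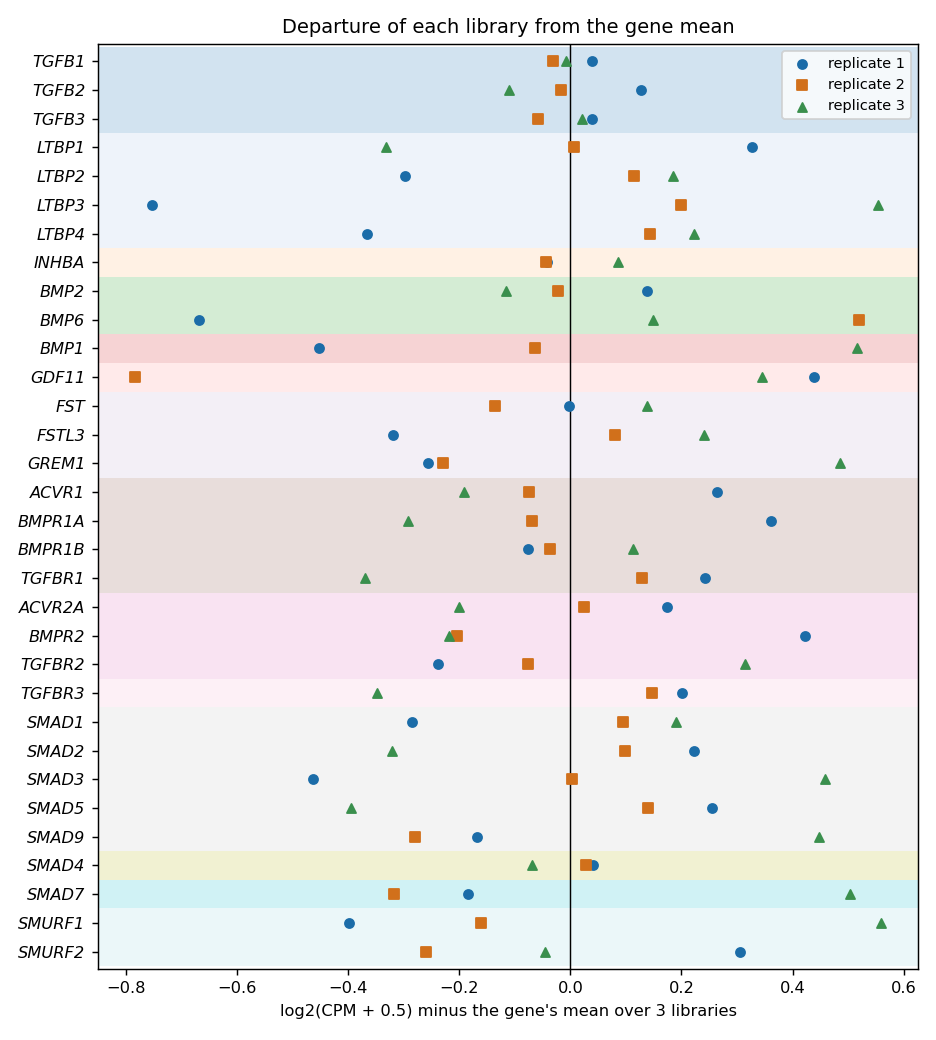
Departure of each library from the gene's mean, in log2(CPM + 0.5), for the 32 pathway genes that reached 10 counts in each library, shaded by role. Blue circles (replicate 1) and green triangles (replicate 3) lie on opposite sides for 30 of 32 genes (80.5% of all genes tested), among them LTBP3, SMAD3 and SMAD5, while TGFB1, TGFB3 and SMAD4 lie close to 0.

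Genes of the pathway outside the member list were counted by lists set by role. Of 14 further secreted modulators and coreceptors with a row 6 were measured. FSTL1, a secreted follistatin-like glycoprotein, stood at 2634 ± 365 CPM, CRIM1, a membrane protein that binds BMPs, at 450.2 ± 50.0 CPM, RGMB, a BMP coreceptor, at 446 ± 13.8 CPM and TWSG1, a chordin partner, at 71.8 ± 20.0 CPM. The other measured genes of the list were the chordin relative CHRDL1 and the TGF-beta coreceptor ENG (endoglin). Of 4 other ligands with a row (MSTN, AMH, NODAL and LEFTY2) 0 were measured, and AMH had 2, 0 and 2 reads and the others 0.

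Of 15 genes listed for storage, processing or binding of TGF-beta, 10 were measured. THBS1, whose product can activate the latent complex, stood at 15509 ± 778 CPM, ASPN, a proteoglycan that binds TGF-beta, at 2446 ± 376 CPM, the microfibril gene FBN1 at 2262 ± 109 CPM and the integrin subunit ITGAV at 201 ± 29.1 CPM. Of the beta subunits listed as its partners, ITGB5 stood at 145, 205 and 233 CPM (194 ± 45.0), ITGB8 had 44, 35 and 22 reads and the epithelial ITGB6 had 0. The convertase FURIN, which cleaves the ligand precursors, stood at 13.8 ± 2.42 CPM. Intracellular regulators were measured in 19 of 19 genes, led by FKBP1A, which holds type I receptors inactive, at 845 ± 240.2 CPM, TAB2 at 319 ± 18.7 CPM, MAP3K7 (TAK1), the kinase of a SMAD-independent branch, at 245 ± 21.8 CPM and PPM1A, a phosphatase of SMAD2 and SMAD3, at 127 ± 21.7 CPM.

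Genes that TGF-beta is known to induce were measured in 9 of 9 cases, with a median of 319 CPM. ACTA2 stood at 4030 ± 383 CPM, POSTN at 2615 ± 414 CPM, CTGF at 2610.4 ± 242 CPM and TGFBI, which encodes a secreted matrix protein, at 361 ± 51.0 CPM, whereas SMAD7, a feedback target, was at 2.74 ± 1.05 and PMEPA1 at 3.17 ± 1.72 CPM. BMP targets were measured in 6 of 10 cases, with a median of 2.75 CPM. ID2, an inhibitor of helix-loop-helix factors, stood at 144 ± 14.0 CPM, ID3 at 33.5 ± 17.1 CPM, the homeobox gene MSX2 at 19.9 ± 2.72 CPM and ATOH8 at 3.03 ± 0.771 CPM, and SMAD6, BAMBI, HEY1 and MSX1 were the 4 below 1 CPM in some library. ID1 had 9, 17 and 27 reads. In the spread test, 2 of 9 TGF-beta targets and 1 of 5 BMP targets had an unadjusted p under 0.05, against 5.06% of all genes. They were JUNB (10.8, 25.6 and 48.5 CPM), TAGLN (185, 402 and 372 CPM) and ID3 (16.3, 33.9 and 50.4 CPM), and none had an adjusted p under 0.05. The target genes answer to other inputs as well, SMAD7 is in both lists, and their levels here do not measure the activity of either branch.

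**Figure D5:**
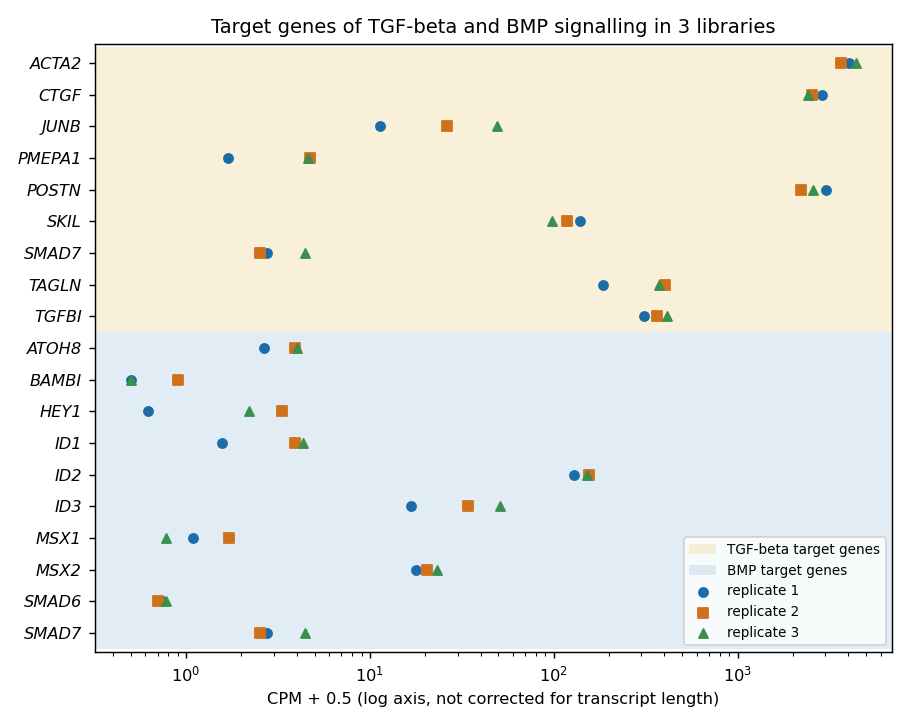
CPM + 0.5 on a log axis of 9 genes that TGF-beta is known to induce and 10 that BMP is known to induce, with 1 symbol per replicate. ACTA2, POSTN and CTGF lie farthest to the right, with means of 4030, 2615 and 2610.4 CPM, and in the BMP list ID2 does, with a mean of 144 CPM.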

How the data were processed

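RNA was measured in 3 libraries of 1 group, BFF116 fibroblasts. Per the labels' protocols, cDNA was amplified with a single-primer isothermal method, 500 ng went into each library with 10 PCR cycles, and single reads of 100 bases were sequenced. The tools were TopHat2 2.0.10, HTSeq 0.6.1 and bcl2fastq 2.18.0.12, per the submitters' processing notes. Not given in the sources used here are the build of the genome, the gene annotation, strandedness and the mode of counting, so overlapping and antisense genes cannot be told apart. The authors deposited whole-number read counts per gene, and 5 summary rows that name no gene were kept out of library sizes. They were 59.2, 58.9 and 62.0% (no gene), 7.93, 7.52 and 7.99% (several alignments) and 0.237, 0.253 and 0.235% (more than 1 gene) of each library.

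CPM was computed with edgeR 4.0.16 in R 4.3.3 with TMM factors of 0.978, 1.02 and 0.998, and log2 levels are log2(CPM + 0.5). Spread was tested with 2 degrees of freedom on the 10434 genes that reached 10 counts in each library, after a check on simulated data. Members and lists were chosen with earlier results of these data known. Members were all named, as measured, with few reads or with 0. From the lists outside the rule, the 4 genes with the highest mean CPM, and those not measured where 4 or fewer, were to be named. FURIN, ITGB5, ITGB6, ITGB8, PMEPA1, JUNB, TAGLN, ID1, CHRDL1, ENG and some marker genes were added after their values were seen. The planned gene pairs and shares per kilobase, with an exact sign-flip test that cannot give a p below 0.25 in 3 libraries, could not be made, because no transcript lengths were at hand. Reads without length took their place, with exact (Clopper-Pearson) 95% intervals from scipy 1.17.1 and no test. Of 30 pairs 29 had both genes in the table. Gene neighbours and overlaps are those of RefSeq on ARS-UCD2.0, in which all 61 members were matched by symbol. INHBD and BMP15 of the member lists had no row and were not analysed here, and a few listed items are not reported here.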

Additional observations from a re-analysis of the deposited data

How the results depend on the processing

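The count of measured members was 35 with TMM factors, with DESeq2 size factors and with no scaling, 32 with a minimum of 10 counts in every library (without ACVRL1, BMP4 and CHRD) and 41 at a mean of 1 CPM. It was 36 to 38 when 1 library was left out: ACVR1B and ACVR2B were added without replicate 1, INHBE without replicate 2, and ACVR1C, BMPER and GDF15 without replicate 3. No member was called more variable than the trend in any of the 8 alternatives run, in which 0 to 15 genes of the whole table were called, 15 of them without replicate 1. In 22 of 23 pairs 1 gene took more reads in every library, an order that a pseudocount shared by both genes cannot change, and in 22 to 23 when 1 library was left out. The exception was the log2 read ratio of SMAD4 over SMAD2, -0.028 in all libraries, which turned to 0.063 without replicate 1 and 0.0070 without replicate 2 and was -0.15 without replicate 3. Of the 11 role lists with more than 1 member and reads in every library, 10 had 1 leading gene in every library, and 10 to 11 when 1 library was left out, the exception being BMP2 and BMP6. The mean CPM of the 35 measured members moved by at most 1.30-fold when 1 library was left out or DESeq2 size factors were used, for BMP4 without replicate 1. Shares and ratios per kilobase were not run. No paired analysis was possible because the series has 1 group. Members with fewer than 10 reads in a library rest on counts with a large counting error and were not in the main spread test.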

Other observations

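Members with 0 reads lay among genes to which reads were assigned. Of the 5 protein-coding genes on each side in ARS-UCD2.0 that have a row in the count table, 70 of 140 (50.0%) were measured beside the 16 members with 0 reads, 202 of 317 (63.7%) beside the 35 measured members, and 56.8% over all protein-coding genes matched. For INHBB 8 of 10 such neighbours were measured and for GDF6 9 of 9, while GDF2 and GDF10, which lie next to each other, had 1 of 6 and 1 of 7. Other members that lie next to each other were ACVR1 (126 ± 21.3 CPM) and ACVR1C (10, 10 and 5 reads), ACVRL1 (21, 6 and 16 reads) and ACVR1B (3, 17 and 9 reads), and INHBE (14, 4 and 11 reads) and INHBC (0 reads). The build of the counts is not known, and this order of genes is that of ARS-UCD2.0.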
